A study of Mus musculus with 4 samples.

Results

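The circadian clock genes Arntl, Per1, Per2, Per3, Cry1, Cry2, Nr1d1, Nr1d2, Dbp and Ciart were followed in RNA sequencing libraries of mouse pancreas. These 10 genes were chosen by symbol from the 55291 symbols counted, and all 10 were among the 19134 genes that passed the filter on low counts. There were 4 libraries, 2 control libraries from Pdx1-Cre+, poh1f/+ mice and 2 libraries labelled knockout from Pdx1-Cre+, poh1f/f mice. Control mice thus carried 1 floxed copy of poh1 and the other mice carried both copies floxed. The sample titles give these genotypes without the words control and knockout, which serve here as names of the groups. All mice carried Pdx1-Cre, a recombinase driven by the Pdx1 promoter and therefore active in the lineage of the pancreatic epithelium, so fibroblasts, vessels and immune cells would keep their floxed copies intact. Poh1, now named Psmd14, is the deubiquitinase of the proteasome lid. For the mice, the sources used here give no hour of tissue collection, feeding state, age or sex. The labels do not say whether the libraries of a group came from separate animals, and p-values here reflect only how far these samples scatter, which may be a technical scatter.

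Values are given as CPM, read counts relative to the scaled library total, in which 1 count was worth 0.0342 to 0.0455 CPM at totals of 22875618 to 27849730 counts per library. Psmd14 RNA was not lower under the knockout label, at 61.6 and 52.9 CPM in the control libraries and 65.9 and 65.2 CPM in the others (log2 fold change 0.20 ± 0.11 SE, edgeR adjusted p = 0.259), so every direction below is one between labels. Acinar markers were present, which fits the pancreas label. Of 12, 9 were called lower (edgeR adjusted p under 0.05), beside 9.95% of all genes tested. The 3 not called, Cela1, Cela3b and Bhlha15, had log2 fold changes of −4.35, −5.28 and −0.59. Summed levels of the 12 were 10158 and 2160 CPM in the control libraries and 197 and 548 CPM in those labelled knockout. All 12 lymphocyte markers were called higher, beside 12.1% of all genes tested, from sums of 174 and 124 to 2082 and 1690 CPM. Of 8 adipocyte markers 7 were called higher, and the list rose from sums of 340 and 973 to 4475 and 3656 CPM. Lep, the adipocyte marker not called, had a log2 fold change of 4.79. Enterocyte markers summed to 566 CPM in knockout replicate 2 and to 5.62 to 24.8 CPM in the other libraries, with Sis, Alpi, Apoa4 and Cdx2 at 0 counts in both control libraries. In RNA of a whole tissue, fewer cells of a type and less RNA per cell cannot be told apart. The part of these shifts in the clock values below was not tested.

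The circadian clock of mammals is a loop of transcription that runs in nearly every cell. The proteins made from Arntl and Clock bind E-box sequences and switch on the Per and Cry genes, whose proteins return to the nucleus and block them. In a second loop the nuclear receptors made from Nr1d1 and Nr1d2 repress Arntl, and Dbp carries the rhythm to output genes through D-box sequences. Arntl RNA therefore peaks at the opposite time of day to Dbp and Nr1d1 RNA. In the pancreas the clock is known to shape insulin secretion and the daily cycle of digestive enzymes, and its phase follows feeding.

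Promoter windows of the members were searched for DNA elements that clock proteins and related factors are known to bind. RefSeq windows on GRCm38.p6 matched 9 of the 10 members, in 11 windows. Per2 had no window and was not searched. The 250 bases before each start site were searched on both strands for CACGTG (the E-box), CACGTT (an E-box variant), TTATGTAA and TTACGTAA (D-boxes). Also searched were TAGGTCA and TGGGTCA (cores of receptor elements) and TGACGTCA (the cyclic AMP response element). None of these motifs overlapped another in the windows where they were found. CACGTG was found in Per1, Cry1 and Ciart, CACGTT in Cry1, Cry2 and Nr1d1, and TTATGTAA in Per3, while the other letters searched were in none of the 11 windows. Among all 32851 RefSeq windows of this length, CACGTG occurred in 6.02%, CACGTT in 3.85% and TTATGTAA in 0.819%. The windows of Nr1d1, the member that passed the test below, and of Ciart, Cry1 and Per3, whose RNA did not, are printed 5′ to 3′ along the gene's strand with the matches in capitals. AACGTG is CACGTT read on the other strand. Nr1d1 is from chr11:98775378-98775627, Ciart from chr3:95882229-95882478, Cry1 from chr10:85185055-85185304 and Per3 from chr4:151044666-151044915, each on the minus strand.
Nr1d1: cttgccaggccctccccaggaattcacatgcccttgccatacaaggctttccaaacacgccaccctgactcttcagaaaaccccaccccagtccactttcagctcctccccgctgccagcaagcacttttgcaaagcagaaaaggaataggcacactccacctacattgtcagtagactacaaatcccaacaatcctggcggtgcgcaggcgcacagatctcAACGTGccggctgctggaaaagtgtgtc
Ciart: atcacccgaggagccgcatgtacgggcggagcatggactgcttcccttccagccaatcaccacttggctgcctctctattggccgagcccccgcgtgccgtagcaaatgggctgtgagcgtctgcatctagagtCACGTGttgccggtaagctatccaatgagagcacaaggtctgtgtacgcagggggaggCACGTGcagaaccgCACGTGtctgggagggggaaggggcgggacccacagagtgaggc
Cry1: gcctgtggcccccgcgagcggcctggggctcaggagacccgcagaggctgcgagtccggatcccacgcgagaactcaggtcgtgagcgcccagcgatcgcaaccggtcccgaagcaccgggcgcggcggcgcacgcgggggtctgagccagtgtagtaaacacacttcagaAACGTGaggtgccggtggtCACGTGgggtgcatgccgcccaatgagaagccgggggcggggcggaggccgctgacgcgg
Per3: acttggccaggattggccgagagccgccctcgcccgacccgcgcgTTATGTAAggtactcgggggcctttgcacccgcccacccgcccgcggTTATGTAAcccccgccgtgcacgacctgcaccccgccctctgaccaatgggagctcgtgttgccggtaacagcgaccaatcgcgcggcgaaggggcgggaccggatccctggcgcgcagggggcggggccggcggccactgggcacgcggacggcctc
Ciart held 3 copies of CACGTG, the first bases of which lie 116, 58 and 44 bases before the start. Per3 held 2 D-boxes, 205 and 158 bases before it, and Cry1 held an E-box and its variant, 60 and 79 bases before it. Nr1d1 had the variant alone, 28 bases before its start. A match is a description of the letters and not a bound site, and a window without one says nothing of elements outside it.

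Nr1d1 was the single clock gene whose RNA differed between the labels by the test, and it rose. Of the 10 members, 1 was higher, 0 were lower and 9 did not pass (edgeR quasi-likelihood test, Benjamini-Hochberg adjusted p under 0.05), whereas 22.1% of all genes tested were called, 12.1% as higher and 9.95% as lower. At an unadjusted p under 0.05 the same count of 1 higher and 0 lower was obtained, beside 38.4% of all genes, and DESeq2 and limma-voom also called 1 higher and 0 lower, beside 24.4% and 21.6% of all genes. The median absolute log2 fold change of the members was 0.11, beside 0.41 for all genes tested, and 9 of the 10 members had a smaller absolute value than the median gene. Every member had at least 104 counts in each library, whereas all genes tested include genes of fewer counts. The median was not computed for genes of like depth. The 95% intervals of the 9 members that did not pass all lay within a 2-fold change in either direction, from a lowest bound of −0.63 for Per2 to a highest bound of 0.68 for Ciart. CPM of the groups did not overlap for 4 members, higher under the knockout label for Nr1d1 and Cry2 and lower for Per2 and Nr1d2, against 68.1% of all genes tested, 34.4% higher and 33.7% lower. At 2 libraries a group these intervals leave room for moderate differences, and a member that did not pass is not shown to be equal.

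**Figure D1:**
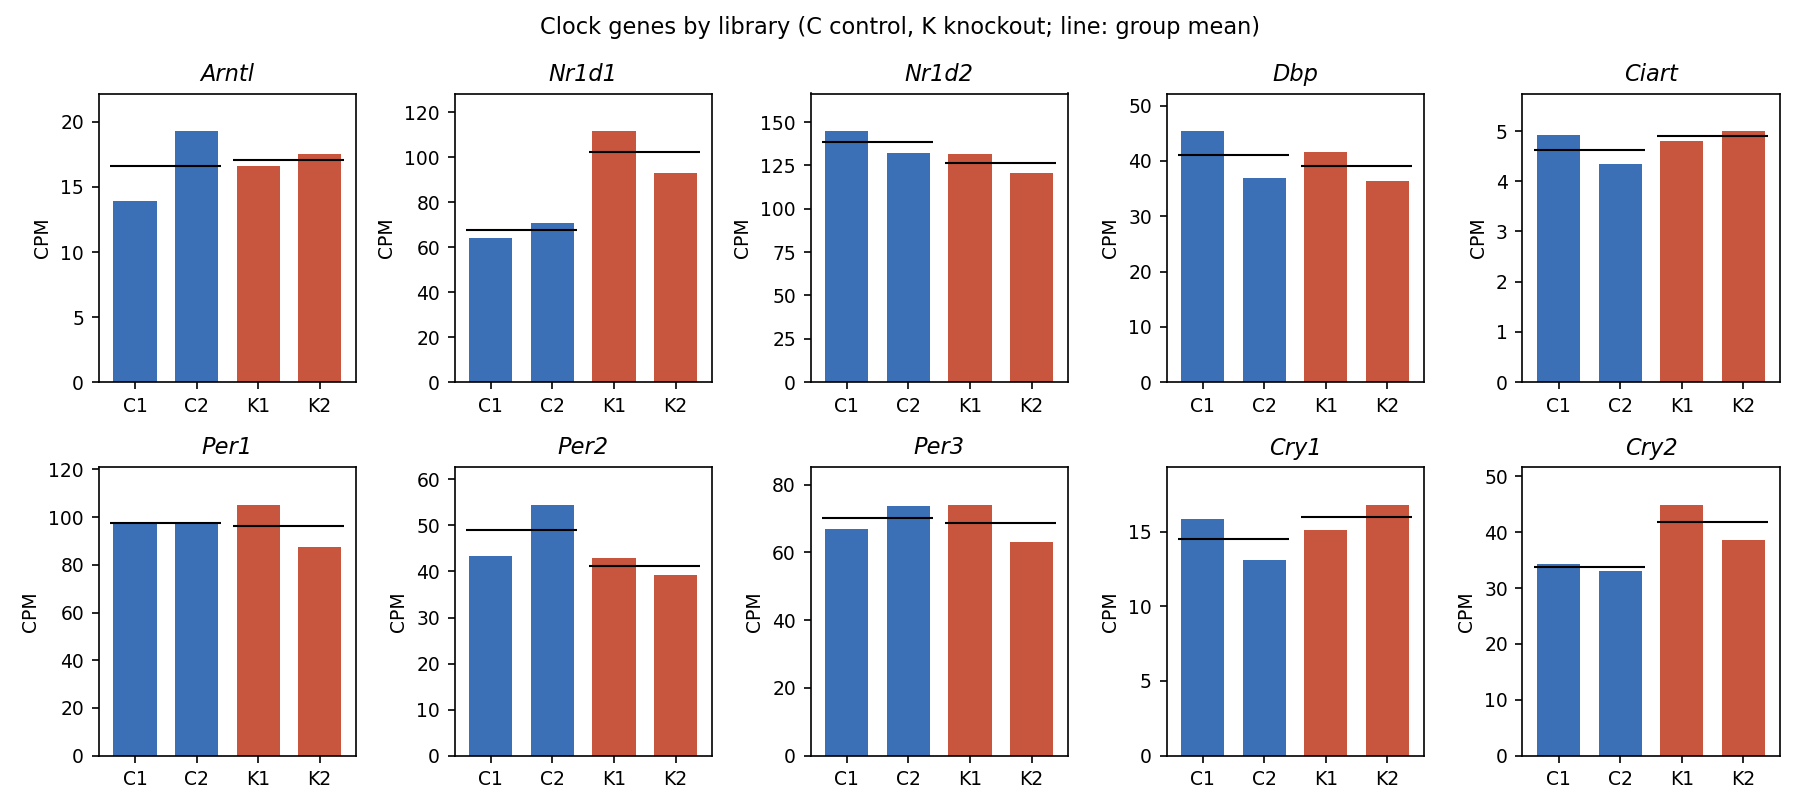
Bars give CPM of each clock gene in each library (C1 and C2, control replicates 1 and 2; K1 and K2, replicates 1 and 2 labelled knockout), and black lines give group means. Nr1d1 is at 64.2 and 70.7 CPM in the control libraries and at 112 and 93.1 CPM in those labelled knockout, while the other genes did not pass the test.

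Arntl encodes BMAL1, the activator of the loop. Control replicate 1 had 13.9 CPM and control replicate 2 had 19.3 CPM, against 16.6 and 17.6 CPM for the knockout label. The control libraries were the lowest and the highest, with both others between them. The group means were 16.6 ± 3.8 and 17.1 ± 0.69 CPM (SD, n = 2 each), a log2 fold change of 0.04 ± 0.20 (SE; edgeR adjusted p = 0.909). The direction of so small a value was negative without control replicate 1 (−0.17) and without knockout replicate 2 (−0.00098). The gene lies on GRCm38 chromosome 7, from 113207465 to 113314126, on the plus strand.

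Nr1d1 encodes REV-ERB alpha, the nuclear receptor that represses Arntl, and was the one member that rose. Counts were 1412 and 1691 in the control libraries and 3114 and 2720 in those labelled knockout, or 64.2, 70.7, 112 and 93.1 CPM. Both libraries labelled knockout were above both control libraries, and the rise was larger than the distance between replicates of either group. The means were 67.5 ± 4.61 and 102 ± 13 CPM (SD, n = 2 each), a fold change of 1.52 with a 95% interval from 1.21 to 1.90 (log2 0.60 ± 0.13 SE, edgeR adjusted p = 0.0308). In absolute log2 change it stood at percentile 63.4 of all genes tested, so many genes moved further in this comparison. The call rests on all libraries but knockout replicate 2: the adjusted p was 0.125 without control replicate 1, 0.07 without control replicate 2 and 0.121 without knockout replicate 1, and 0.0518 with the replicate number as a block. The log2 fold change was 0.46 to 0.67 when a library other than knockout replicate 2 was left out and 0.73 without that library. Nr1d1 (chromosome 11, 98767932 to 98775333, minus strand) ends inside Thra, a thyroid hormone receptor gene on the plus strand, with which it shares 263 exonic bases, or 8.55% of its exonic length. Without the strand setting of the counting, reads from the shared bases cannot be assigned to one gene. Thra itself was at 77.1, 104, 87.2 and 87.2 CPM in the same order of libraries and did not pass (log2 −0.05 ± 0.16, edgeR adjusted p = 0.838).

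Nr1d2, the paralogue of Nr1d1 that encodes REV-ERB beta, did not move with it. It had 145 and 132 CPM in the control libraries and 132 and 121 CPM in those labelled knockout. The highest library labelled knockout was just below the lowest control library, a gap far smaller than the spread within either group. The log2 fold change was −0.13 ± 0.11 (SE), with an interval from −0.41 to 0.14 (edgeR adjusted p = 0.417). The log2 ratio of Nr1d1 to Nr1d2 within a library, which no scaling of the library can change, was −1.17 and −0.90 in the control libraries and −0.24 and −0.37 in those labelled knockout. Both libraries labelled knockout stood above both control libraries in this ratio, which was chosen after the values were seen and was not tested. Per kilobase of exon, Nr1d2 was above Nr1d1 in both control libraries (26.8 and 24.4 against 20.9 and 23 CPM per kilobase), and Nr1d1 was above Nr1d2 in both others (36.3 and 30.3 against 24.3 and 22.3).

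The Period genes encode the repressors whose build-up times the loop. Per1, which also responds quickly to hormones and neural signals, had 97.3 and 98.1 CPM in the control libraries and 105 and 87.5 CPM in those labelled knockout. The control libraries were nearly equal and lay between the others (log2 −0.02 ± 0.12 SE, edgeR adjusted p = 0.927). Per2 had 43.3 and 54.5 CPM in the control libraries and 43 and 39.2 CPM in the others. The groups touched without overlapping, since control replicate 1 and knockout replicate 1 were almost level, and the difference was smaller than that between the control libraries (log2 −0.25 ± 0.15 SE, edgeR adjusted p = 0.275). Per3, a less essential member of the family, had 66.8 and 73.8 CPM against 74.1 and 63.2 CPM. Its groups overlapped fully (log2 −0.03 ± 0.12 SE, edgeR adjusted p = 0.864). Without scaling beyond the library totals, which shifts the median of all genes to 0.10, the log2 fold changes of Per1 and Per3 were 0.08 and 0.06, so neither has a direction to report.

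The Cryptochromes are the partners of the Period proteins and the stronger repressors of the loop. Cry1 had 15.9 and 13.1 CPM in the control libraries and 15.1 and 16.8 CPM in those labelled knockout, with overlapping groups (log2 0.14 ± 0.17 SE, edgeR adjusted p = 0.602). Cry2 had 34.2 and 33.1 CPM in the control libraries and 44.9 and 38.6 CPM in the others. All of the libraries labelled knockout were above all control libraries, yet Cry2 did not pass (fold 1.24, interval 0.992 to 1.55; edgeR adjusted p = 0.14). Its adjusted p ran from 0.0666 to 0.618 over 12 alternative analyses. Cry2 (chromosome 2, 92403646 to 92434043) overlaps the noncoding D930015M05Rik on the other strand by 295 exonic bases, and that gene had 11 to 41 counts a library. Ciart, also called Chrono, is a further repressor of the Arntl and Clock proteins. With 104 to 146 counts a library it was the member of the fewest reads, at 4.91 and 4.35 CPM in the control libraries and 4.8 and 5 CPM in those labelled knockout. Its replicates did not differ beyond counting error in either group (log2 0.08 ± 0.24 SE, edgeR adjusted p = 0.833).

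Dbp encodes the D-box binding activator that drives output genes, and its RNA has among the widest daily swings of the clock in many tissues. Its level was 45.4 and 36.9 CPM in the control libraries and 41.7 and 36.3 CPM in those labelled knockout. The replicates of each group stood further apart than the group means, which were 41.1 ± 6.04 and 39 ± 3.8 CPM (SD, n = 2 each). The log2 fold change was −0.08 ± 0.15 (SE), with an interval from −0.46 to 0.31 (edgeR adjusted p = 0.752), and its sign turned without scaling beyond the library totals (0.02). Dbp (chromosome 7, 45705088 to 45710203, plus strand) shares 539 exonic bases with Sphk2 on the minus strand, or 18% of its exonic length, and Sphk2 was at 37.2 to 42 CPM in all libraries.

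Whether the libraries stood at different clock times was looked at through ratios within a library, since Arntl rises as Dbp and Nr1d1 fall over the daily cycle. The log2 ratio of Dbp to Arntl was 1.7 and 0.93 in the control libraries and 1.33 and 1.05 in those labelled knockout. The control libraries held both ends of the range, 0.77 apart, and the group means of 1.32 and 1.19 differed by −0.13. Leaving out 1 library at a time gave differences from −0.51 to 0.25, so the direction depended on single libraries. The log2 ratio of Nr1d1 to Arntl was 2.20 and 1.87 in the control libraries and 2.74 and 2.40 in the others, higher under the knockout label by 0.54 and by 0.37 to 0.71 with 1 library left out. Of the 9 members set against Arntl, Nr1d1 was higher and Per2 lower without overlap, and the other 7 overlapped. In CPM alone, 68.1% of all genes tested did not overlap, and no such share was computed for the ratio to Arntl. In this ratio Nr1d1 stood apart between the labels while Dbp, whose RNA usually peaks soon after it, overlapped. No time of day was estimated, because the files hold no series of known hours to compare with. These ratios are descriptions with no test.

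**Figure D2:**
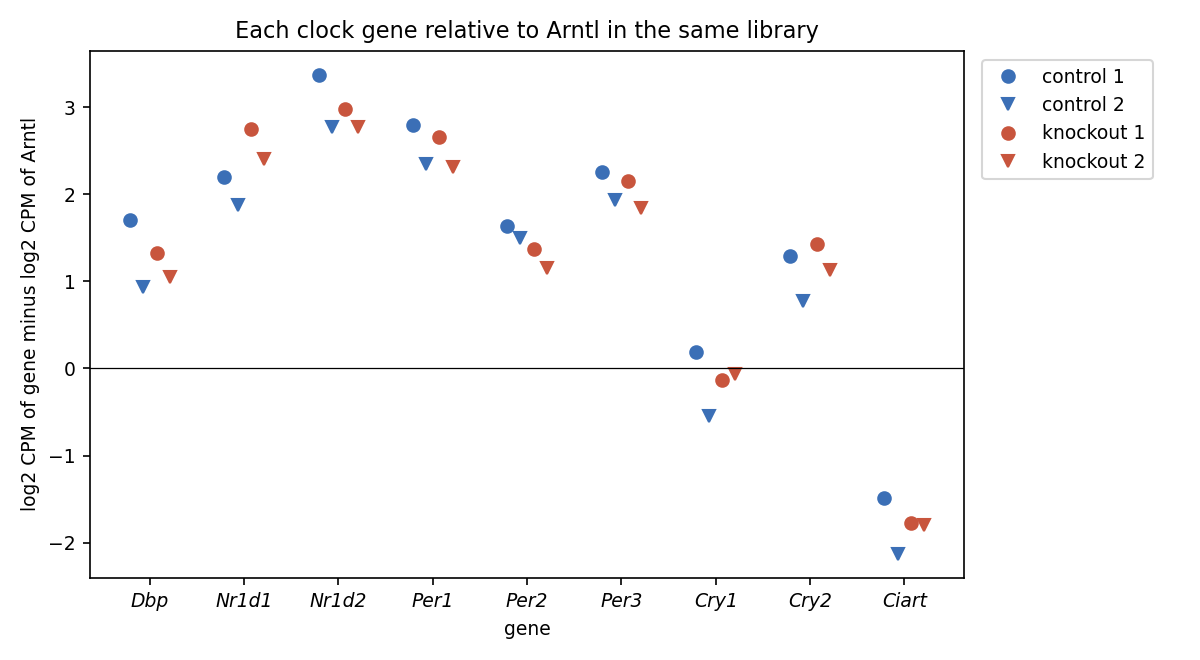
Each point is log2 CPM of a clock gene minus log2 CPM of Arntl in 1 library (circles, replicate 1; triangles, replicate 2; blue, control; red, labelled knockout). For Dbp the control points (1.7 and 0.93) enclose the red ones (1.33 and 1.05), and for Nr1d1 both red points (2.74 and 2.40) are above the blue ones (2.20 and 1.87).

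Differences between replicates were as large as those between labels for most members. In control replicate 2 Arntl was 1.39 times its level in replicate 1, with a 95% counting interval from 1.20 to 1.61, while Dbp was 0.812 times its level (0.741 to 0.89). Arntl and Dbp differed in opposite directions between the control libraries. Nr1d1, which like Dbp peaks opposite to Arntl, was instead higher together with Arntl (1.10 times, 1.03 to 1.18). The part of clock time in these differences was not tested. Per2, Per3 and Nr1d1 were also higher and Cry1 and Nr1d2 also lower in control replicate 2, so that 4 members were higher and 3 lower beyond counting error, beside 24.6% and 24.3% of all genes. Acinar markers differed between the same libraries (10158 and 2160 CPM summed), as did adipocyte (340 and 973) and smooth muscle markers (1014 and 2732), and their part was not tested. Between the libraries labelled knockout 7 members differed beyond counting error, and all 7 were lower in replicate 2: Per1, Per2, Per3, Cry2, Nr1d1, Nr1d2 and Dbp, at 0.831 to 0.918 times the level in replicate 1. Arntl, Cry1 and Ciart, with ratios of 1.06, 1.11 and 1.04, did not differ beyond counting error there. Enterocyte (5.62 and 566 CPM summed), islet (404 and 144), acinar (197 and 548) and smooth muscle markers (1629 and 877) differed between these libraries too. The part of these markers was not tested. Among all genes tested, 48.9% differed beyond counting error between the control libraries and 40.8% between the others, where 22.4% were lower in replicate 2. Among the 12175 genes that, like the members, had at least 100 counts in every library, 60.6% differed between the control libraries (31.4% lower in replicate 2) and 45.1% between the others (26.8% lower). Counting intervals leave out the variation between animals and preparations, so they say that libraries differ and not that clocks do.

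**Figure D3:**
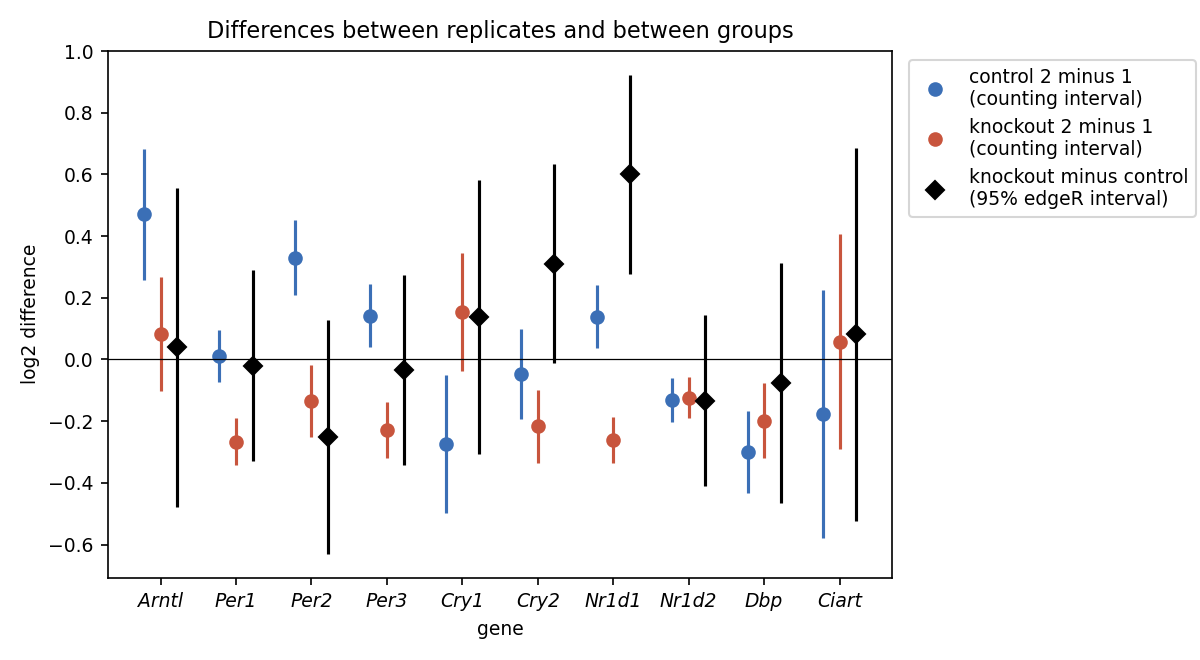
For each clock gene the blue and red points give the log2 difference between replicates (2 minus 1) of the control libraries and of those labelled knockout, with 95% counting intervals, and black diamonds give the fitted difference between labels with its 95% edgeR interval. The diamond is further from 0 than both points for 3 genes, Nr1d1 (0.60), Cry2 (0.31) and Nr1d2 (−0.13), the last narrowly, and for Arntl the largest difference is that between the control libraries (0.47).

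Levels per kilobase of exon put the receptors of the second loop on top and Arntl near the bottom. Over the 4 libraries Nr1d1 had 20.9 to 36.3 and Nr1d2 22.3 to 26.8 CPM per kilobase, followed by Per1 at 15.5 to 18.7 and Dbp at 12.1 to 15.2. Below them came Per2 (6.69 to 9.31), Per3 (6.58 to 7.71), Cry2 (5.24 to 7.11) and Cry1 (3.93 to 5.03), and last Arntl (1.85 to 2.56) and Ciart (1.92 to 2.21). The ranges of Nr1d1 and Nr1d2 overlapped, as did those of Per2, Per3 and Cry2 and those of Arntl and Ciart, so the order within each of these sets is not resolved. Exon lengths were those of all annotated transcripts of a gene together, which understates genes with long rarely used exons.

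The genes with the most similar pattern over the 4 libraries were sought for the pair that peaks in opposition. Likeness was the root mean square difference of log2 CPM, each gene centred on its own mean, over 12308 protein-coding genes of at least 5 CPM. Slc25a40, Gins2 and Zfp938 were nearest to Dbp, with differences of 0.018, 0.019 and 0.021. Fam53b, Zdhhc15 and Cish were nearest to Arntl, with 0.017, 0.019 and 0.021. None of these 6 genes was on the lists of clock genes used here. Among the members Nr1d2 was the nearest to Dbp (0.072), closer than all but 2.3% of the 12308 genes, and Nr1d1 the farthest (0.37), with 72.7% of the genes closer. Many genes match a pattern of 4 values, so these are descriptions only.

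Among other genes of the loop, those called fell. Of 13 listed, 12 were tested, with a median absolute log2 fold change of 0.46 beside 0.41 for all genes tested, and 2 fell while 0 rose (edgeR), beside 9.95% and 12.1% of all genes. At an unadjusted p under 0.05, 4 were lower and 2 higher, beside 38.4% of all genes in either direction. DESeq2 and limma-voom each called 1 higher and 3 lower, beside 24.4% and 21.6% of all genes in either direction. Bhlhe40 and Bhlhe41 encode DEC1 and DEC2, repressors that compete for E-boxes and are themselves switched on through them. Bhlhe40 had 144 CPM in each control library and 98.5 and 92.7 CPM in those labelled knockout (log2 −0.59 ± 0.10 SE, edgeR adjusted p = 0.0169). Bhlhe41 had 41.5 and 31.8 CPM against 16.1 and 14.1 CPM (log2 −1.28 ± 0.18 SE, edgeR adjusted p = 0.0123). Neither pair of groups overlapped, and both calls were lost without control replicate 1 (adjusted p 0.054 and 0.058), that of Bhlhe40 also without knockout replicate 1 (0.0583) or 2 (0.117). Duct and fibroblast markers fell in the same libraries, with 9 of 10 and 6 of 9 called lower and sums of 3352 to 4165 against 979 to 1125 CPM and of 26342 to 30482 against 9512 to 10959 CPM, and their part in the fall was not tested.

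The partners of Arntl did not pass. Clock, which encodes its usual partner, had 67 and 81.8 CPM in the control libraries and 90.2 and 80.9 CPM in the others (log2 0.20, edgeR adjusted p = 0.323). Npas2, which can stand in for Clock, had 6.91 and 8.07 against 4.66 and 5.41 CPM, and Arntl2, a paralogue of Arntl, had 18.1 and 18.9 against 15.3 and 11.8 CPM. Both lay lower without overlap but missed the threshold (log2 −0.57 and −0.45, edgeR adjusted p = 0.138 and 0.144). Rora, which encodes a nuclear receptor that activates Arntl, did not pass either (log2 0.12, edgeR adjusted p = 0.598), and Rorb, at 8 to 24 counts a library, was not tested.

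Among relatives of Dbp, Tef overlapped at 144 and 166 CPM against 164 and 150 CPM (log2 0.02, edgeR adjusted p = 0.926). Hlf had 16 and 15.2 CPM in the control libraries and 23.5 and 20.2 CPM in the others (log2 0.48 ± 0.15 SE, edgeR adjusted p = 0.0785). Nfil3, the repressor that binds the same D-boxes, had 20.7 and 22.5 against 15.3 and 14.6 CPM (log2 −0.53 ± 0.14 SE, edgeR adjusted p = 0.0538), and passed with DESeq2 (0.0436) and limma-voom (0.0476). Timeless, whose mammalian product serves mainly DNA replication, had 20.7 and 28.4 against 37.2 and 43.5 CPM (log2 0.72 ± 0.19 SE, edgeR adjusted p = 0.0551). It passed with DESeq2 (0.0119), with limma-voom (0.0499) and with the replicate number as a block (0.0357). Cipc, a repressor of the Clock protein, had 53.9 and 55.7 against 45.1 and 40.4 CPM (log2 −0.36, edgeR adjusted p = 0.0741). Of these 5 genes, 4 had groups that did not overlap, beside 68.1% of all genes tested, Tef being the exception.

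Among enzymes that modify clock proteins or mark them for decay, 1 casein kinase gene fell. Of 16 tested, 1 fell and 0 rose (edgeR), beside 9.95% and 12.1% of all genes, and the median log2 fold change was −0.09. At an unadjusted p under 0.05, 1 was higher and 1 lower, beside 38.4% of all genes in either direction. DESeq2 and limma-voom each called 0 higher and 1 lower, beside 24.4% and 21.6% of all genes in either direction. The gene that fell was Csnk1e, a casein kinase that phosphorylates the Period proteins, at 109 and 100 against 66.4 and 60.6 CPM (log2 −0.72 ± 0.10 SE, edgeR adjusted p = 0.0126; 0.0586 without control replicate 1).

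Genes known as outputs of the clock went both ways. Of 7 tested, 2 rose and 1 fell (edgeR), beside 12.1% and 9.95% of all genes, with a median log2 fold change of 0.21. At an unadjusted edgeR p under 0.05, 3 were higher and 2 lower, beside 38.4% of all genes in either direction. DESeq2 called 3 higher and 1 lower, beside 24.4% of all genes in either direction. With limma-voom 2 were higher and 1 lower, beside 21.6%. Lpin1, a phosphatidate phosphatase of fat synthesis, had 54.1 and 67 CPM in the control libraries and 146 and 130.2 CPM in those labelled knockout (log2 1.19 ± 0.14 SE, edgeR adjusted p = 0.00834). Pdk4, a kinase that spares glucose, had 43.5 and 54.9 against 82.3 and 102 CPM (log2 0.90 ± 0.17 SE, edgeR adjusted p = 0.0222), a call lost without control replicate 1 (0.106) or 2 (0.0504). Tspan4, a tetraspanin, had 140.5 and 130 against 93.9 and 85.4 CPM (log2 −0.59 ± 0.11 SE, edgeR adjusted p = 0.0206), lost without control replicate 1 (0.0705) or knockout replicate 2 (0.127). The groups of all 3 genes stood apart, as did those of 68.1% of all genes tested. Adipocyte markers rose in the same libraries, from at most 973 to at least 3656 CPM in sum, and their part in the changes was not tested.

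Cues that can reset the clock were read from a list of glucocorticoid-responsive genes and one of immediate early genes. Of the 9 on the first list, 1 rose and 1 fell (edgeR; median log2 −0.20), beside 12.1% and 9.95% of all genes. Zbtb16, a zinc finger factor, had 11.6 and 11.8 against 50.4 and 35.1 CPM, and Mt1, a metallothionein, 139 and 98.9 against 67.6 and 59.1 CPM (edgeR adjusted p = 0.00746 and 0.029). Both calls were lost without control replicate 1 (0.0649 and 0.0723). Of 14 immediate early genes 1 rose and 3 fell (edgeR; median log2 −0.01), beside the same 12.1% and 9.95%. Egr3 rose (10 and 10.8 against 27.7 and 30.2 CPM), Jun, Ier3 and Atf3 fell, and Atf3 was named after its values were seen (edgeR adjusted p = 0.00546, 0.0116, 0.0297 and 0.0477 in that order). Without 1 library at a time, the call of Egr3 held in all 4 fits. That of Jun was lost without knockout replicate 2 (adjusted p 0.0571), and that of Ier3 in every fit but that without knockout replicate 1 (0.067 to 0.126). Atf3 passed in 1 of these 4 fits, that without knockout replicate 2 (0.00882; 0.1 to 0.198 in the others), and did not pass under the other edgeR scalings and filters and the replicate block (0.0508 to 0.0729), while DESeq2 (0.00892) and limma-voom (0.0439) called it. Per1 stood at 105 CPM in knockout replicate 1 and 87.5 CPM in replicate 2. The 14 immediate early genes summed to 1009 and 768 CPM in these libraries and to 931 and 912 CPM in the controls. Of the 14, 12 were higher in knockout replicate 1 than in replicate 2, and 7 were highest there of all 4 libraries. The shares of all genes on these counts were not computed. Beyond counting error, 22.4% of all genes tested were lower and 18.4% higher in knockout replicate 2. The part of the difference in immediate early genes in the Per1 values was not tested.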

How the data were processed

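Total RNA of 4 mouse pancreas libraries was sequenced. Per the submitters' processing notes, STAR 2.7.6a and featureCounts 2.0.1 were run on GRCm38, with FastQC 0.11.9, SAMtools 1.7 and Trim Galore 0.6.6 also listed. Not given in the sources used here are the strand setting, the annotation release and the handling of multiply aligned reads. The files hold raw counts as deposited, 1 whole number for each gene symbol per the file headers, and groups and replicate numbers came from the sample titles.

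Counts of all genes were fitted with edgeR 4.0.16 in R 4.3.3: genes were kept by filterByExpr, libraries scaled by TMM (factors 0.962 to 1.05), and group tested as the sole term by quasi-likelihood, with p-values adjusted by Benjamini-Hochberg over 19134 genes at 0.05. SE was derived from the fitted log2 fold change and its F statistic. CPM are relative to the TMM-scaled sum over tested genes, and ratios within a library use log2 CPM with a prior count of 2. Counting intervals are exact binomial at 95% and cover counting error only. Replicates differed by more than sampling noise (chi-square per degree of freedom 46.2 and 32.5). The fit was tested on simulated data. Alternatives were DESeq2 1.42.0, limma-voom (limma 3.58.1), other scalings and filters, the replicate number as a block, and omission of each library.

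The 10 clock genes and the other lists were chosen with earlier results of these data known. Genes named were all members, Psmd14, the other loop genes, and of each further list the called genes with the smallest p, at most 3, and 1 gene that the rule names is not reported here. Positions, gene types and exon lengths are from GENCODE M21 on GRCm38, and promoter windows from RefSeq on GRCm38.p6.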

Additional observations from a re-analysis of the deposited data

How the results depend on the processing

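Of 384 values of the 32 named genes tested under alternative settings, 342 kept their direction and their side of the threshold, 19 lost the call, 8 gained one and 15 changed sign. No call changed sign. Nr1d1 was called in 8 of its 12 alternatives, and no other clock member in any of its 12. Under the replicate block, which paired libraries by number, 0 clock members and 1 other loop gene were higher, beside 1960 of the 19134 genes tested. The replicate numbers are not said to mark a shared animal or day, and same-numbered libraries did not deviate together (correlation 0.03 across genes). Without scaling beyond library totals Per1 (0.076), Per3 (0.062) and Dbp (0.021) turned positive, and 2 other loop, 2 glucocorticoid and 2 immediate early genes were higher. That setting called 2827 of all 19134 genes tested higher, against 2320 in the main fit, with the median log2 fold change of all genes at 0.10. DESeq2 called 1 other loop, 2 glucocorticoid and 3 immediate early genes higher, beside 2810 of the 21230 genes it tested. With limma-voom 1 other loop gene was higher, beside 2238 of 19134 genes.

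Without 1 library at a time, members called higher ranged from 0 to 1. Other loop genes ranged from 0 to 1 higher and 0 to 2 lower, modifiers from 0 to 2 lower, outputs from 1 to 3 higher and 0 to 1 lower, glucocorticoid genes from 0 to 1 higher and 0 to 2 lower, and immediate early genes from 1 to 5 higher and 1 to 2 lower. Fewer genes were called in all without control replicate 1 (702 higher and 424 lower, against 2320 and 1904). These fits take the spread from the group that still has 2 libraries and apply it to the single one. Over these 4 fits the log2 fold changes whose sign varied ran from −0.17 (without control replicate 1) to 0.30 for Arntl, −0.16 to 0.11 (without knockout replicate 2) for Per1, −0.16 to 0.077 (without knockout replicate 2) for Per3, −0.22 to 0.083 (without control replicate 1) for Dbp, −0.0028 (without control replicate 2) to 0.17 for Ciart, −0.016 (without knockout replicate 1) to 0.26 for Rora and −0.075 (without control replicate 1) to 0.12 for Tef. For each change the cause was not tested. At 104 to 146 counts a library, Ciart was the member whose precision depth limited most.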
